A study of Caenorhabditis elegans with 12 samples.

Results

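The genes described here are the neuropeptide and insulin-like peptide genes of the nematode Caenorhabditis elegans. They comprise the FMRFamide-like peptide genes (flp), the neuropeptide-like protein genes (nlp) and the insulin-like genes (ins, counted with daf-28). They were chosen by name alone, as the probe sets to which the array annotation gives 1 gene symbol starting with flp-, nlp- or ins-, or the symbol daf-28. The genes nlp-24 to nlp-34, of which the array held 10 and several of which encode antimicrobial peptides of the skin, were left out. This gave 109 probe sets for 97 genes, out of 17118 genes with a probe set of their own symbol. There were 25 flp, 48 nlp and 24 ins genes. For the 10 genes with several probe sets, the one with the highest mean over all arrays was used.

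RNA of whole wild-type N2 worms was measured on 12 Affymetrix arrays, 3 for each of 4 RNA interference (RNAi) groups. The bacteria fed to the worms carried RNAi against hsp-6 with hsf-1, against hsp-6 with dve-1, against hsp-6 alone, or an empty vector. Worms of all groups were day 3 adults that had spent 3 days, starting at day 1 of adulthood, on the bacterial strain HT115, and eggs and larvae had been washed away during that time. The groups labelled HSP-6;HSF-1 and HSP-6;DVE-1 are called hsf-1 dual RNAi and dve-1 dual RNAi. The product of hsp-6 is the Hsp70 of mitochondria. hsf-1 codes for the heat shock transcription factor, and dve-1 for a homeodomain protein that acts in the stress response of mitochondria. The labels give no transgene or mutation, and do not say whether the 3 arrays of a group came from separate cultures, so p-values measure the spread between these arrays, which may be technical.

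Neuropeptides are cut from larger precursors in dense core vesicles, and many are then amidated before release. They act on G protein-coupled receptors, often at a distance from the releasing neuron, and set states such as sleep, feeding, egg laying and locomotion. Insulin-like peptides of the worm are released from neurons and intestine and act on the single insulin receptor DAF-2 as agonists or antagonists. In bulk RNA of whole worms, fewer cells of a type and less RNA per cell cannot be told apart.

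The deposited values are log2 GCRMA values with a shared minimum of 2.16, and the arrays had medians of 7.94 to 8.11 on the tested probe sets. hsp-6 mRNA was lower in the hsp-6 RNAi arrays than in the empty vector arrays by limma (log2 difference -4.28, adjusted p = 0.00019). In the dual RNAi arrays it was higher than under hsp-6 RNAi alone, by 2.79 in the hsf-1 dual RNAi arrays (adjusted p = 0.0024) and by 2.98 in the arrays labelled dve-1 dual RNAi (adjusted p = 0.00086). dve-1 itself was higher in the arrays labelled dve-1 dual RNAi than in the hsp-6 arrays, by 2.53 (adjusted p = 0.03), which goes against that label, by 1 of its probe sets, while the other differed by 0.24 (adjusted p = 0.63). The hsf-1 mRNA was 0.78 lower in the hsf-1 dual RNAi arrays than in the hsp-6 arrays by 1 probe set and 0.90 lower by the other. Neither difference passed the test (adjusted p = 0.26 and 0.12). Against empty vector the same probe sets were 1.60 and 1.64 lower, also not called (adjusted p = 0.087 and 0.085). 2 arrays stood apart on the first principal component of the tested probe sets, hsf-1 dual RNAi replicate 3 at 104.3 and dve-1 dual RNAi replicate 2 at 97.0, while the other 10 lay between -56.9 and 46.1. Differences that rest on these 2 arrays are therefore also given without them. The most alike pair of arrays was hsp-6 replicates 1 and 3, with a correlation of 0.997 over the tested probe sets. The next pair, hsf-1 dual RNAi replicate 1 and dve-1 dual RNAi replicate 1, had 0.982. The labels do not say whether hsp-6 replicates 1 and 3 came from separate cultures. With their mean used as 1 array, 35 probe sets were called between hsf-1 dual RNAi and hsp-6, against 684 with 3 hsp-6 arrays. Leaving out hsp-6 replicate 1, 2 or 3 instead gave 48, 89 and 35, so the count fell likewise with any 1 hsp-6 array fewer.

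Of the 97 peptide genes, 55 had a mean above log2 4 over the 12 arrays: 20 of 25 flp, 28 of 48 nlp and 7 of 24 ins genes. The genes just above this level were nlp-3 at 4.01, nlp-21 at 4.03 and flp-14 at 4.09, and those just below it were nlp-16 at 3.90, nlp-18 at 3.82 and nlp-15 at 3.60. Probe sets were tested where they exceeded log2 4 on at least 3 arrays, which held for 59 of the 97 genes, 20 flp, 31 nlp and 8 ins. 5 of these 59 (nlp-21, nlp-3, nlp-18, nlp-15 and ins-37) passed through the dual RNAi arrays alone, since none of their hsp-6 or empty vector arrays exceeded log2 4. 33 genes exceeded log2 4 on no array. 14 of them stayed within 0.1 of the table's minimum throughout, among them daf-28, which encodes a DAF-2 agonist, and nlp-22, a sleep peptide gene of the RIA neurons. A value above log2 4 is not in itself a sign of a measured transcript: nlp-91 read 4.22 on 11 arrays and 4.26 on the other.

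**Figure D1:**
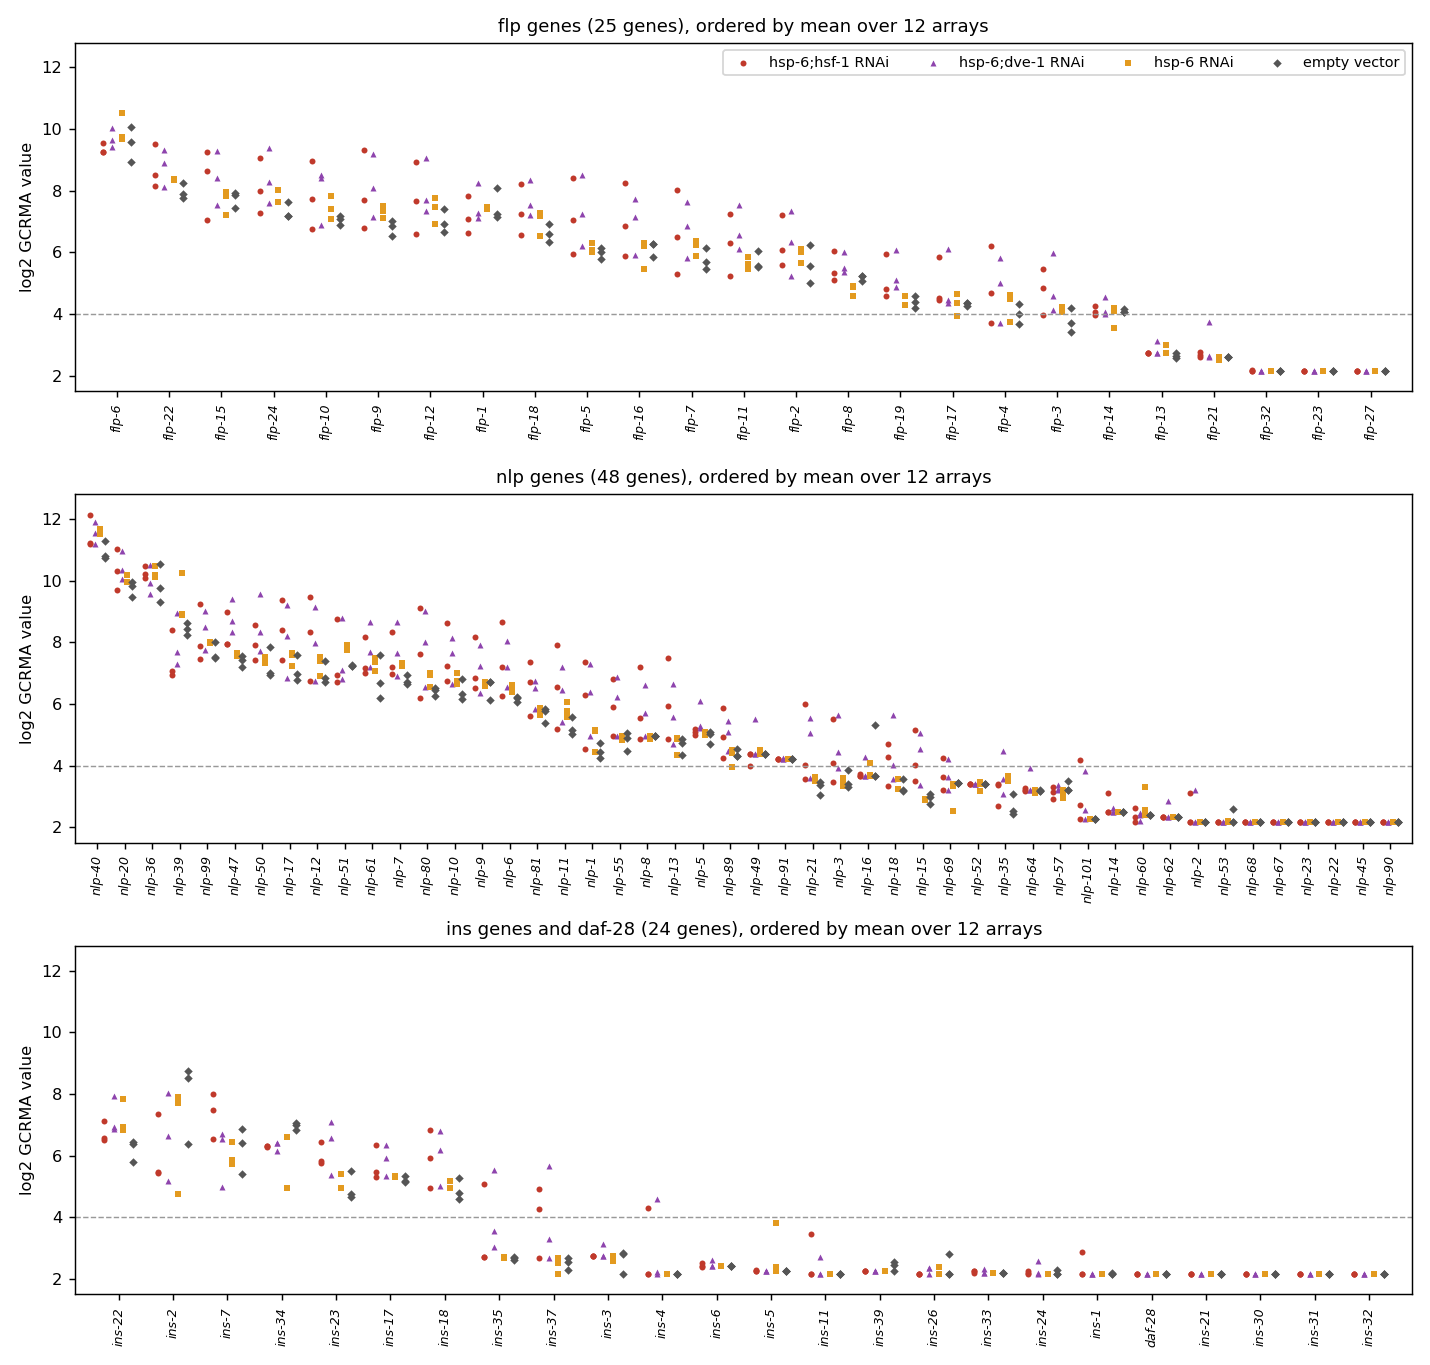
Log2 GCRMA values (vertical axis) of the 97 peptide genes, 1 panel per family, with 1 point per array and genes ordered by their mean. The dashed line marks log2 4. The flp and nlp genes reach higher values than the ins genes, of which 7 of 24 have a mean above the line, and the highest points of most genes belong to the dual RNAi groups.

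The main pattern in the peptide genes lay between single arrays more than between the 4 groups. 52 of the 59 tested genes (88.1%) had their highest value in hsf-1 dual RNAi replicate 3 or dve-1 dual RNAi replicate 2, 26 genes in each. Among all 12057 tested probe sets this share was 25.8%. In 45 peptide genes (76.3%) both of these arrays lay above each of the other 10, against 15.7% of all tested probe sets. The first replicates of both dual RNAi groups followed. In 35 genes (59.3%) these 4 arrays all exceeded each hsp-6 and empty vector array, against 11.9% of all tested probe sets. All 3 counts include the 5 genes that passed the filter through the dual RNAi arrays alone. Leaving out such genes, the counts were 47, 40 and 30 of 54 genes, or 87.0%, 74.1% and 55.6%, against 23.3%, 13.5% and 9.10% of the 11604 remaining probe sets. Since the 2 farthest arrays are set apart on many probe sets, these shares describe the arrays and are not a test of the groups.

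The median deviation of the 59 genes from their own means showed the same order. It was 0.12, -0.45 and 1.18 in hsf-1 dual RNAi replicates 1 to 3, and 0.37, 1.25 and -0.27 in the arrays labelled dve-1 dual RNAi. It was -0.20, -0.40 and -0.17 in the hsp-6 arrays, and -0.53, -0.59 and -0.25 in the empty vector arrays. The remaining dual RNAi arrays, hsf-1 dual RNAi replicate 2 and dve-1 dual RNAi replicate 3, therefore lay within the range of the hsp-6 and empty vector arrays. The median standard deviation of a peptide gene within a group was 0.84 in the hsf-1 dual RNAi group and 0.87 in the group labelled dve-1 dual RNAi, where that of all tested probe sets was 0.41 and 0.39. In the hsp-6 and empty vector groups it was 0.20 and 0.26, next to 0.17 and 0.26 for all tested probe sets. Differences between the 4 groups accounted for a median of 39.8% of a peptide gene's variance, and for 46.5% over all tested probe sets.

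**Figure D2:**
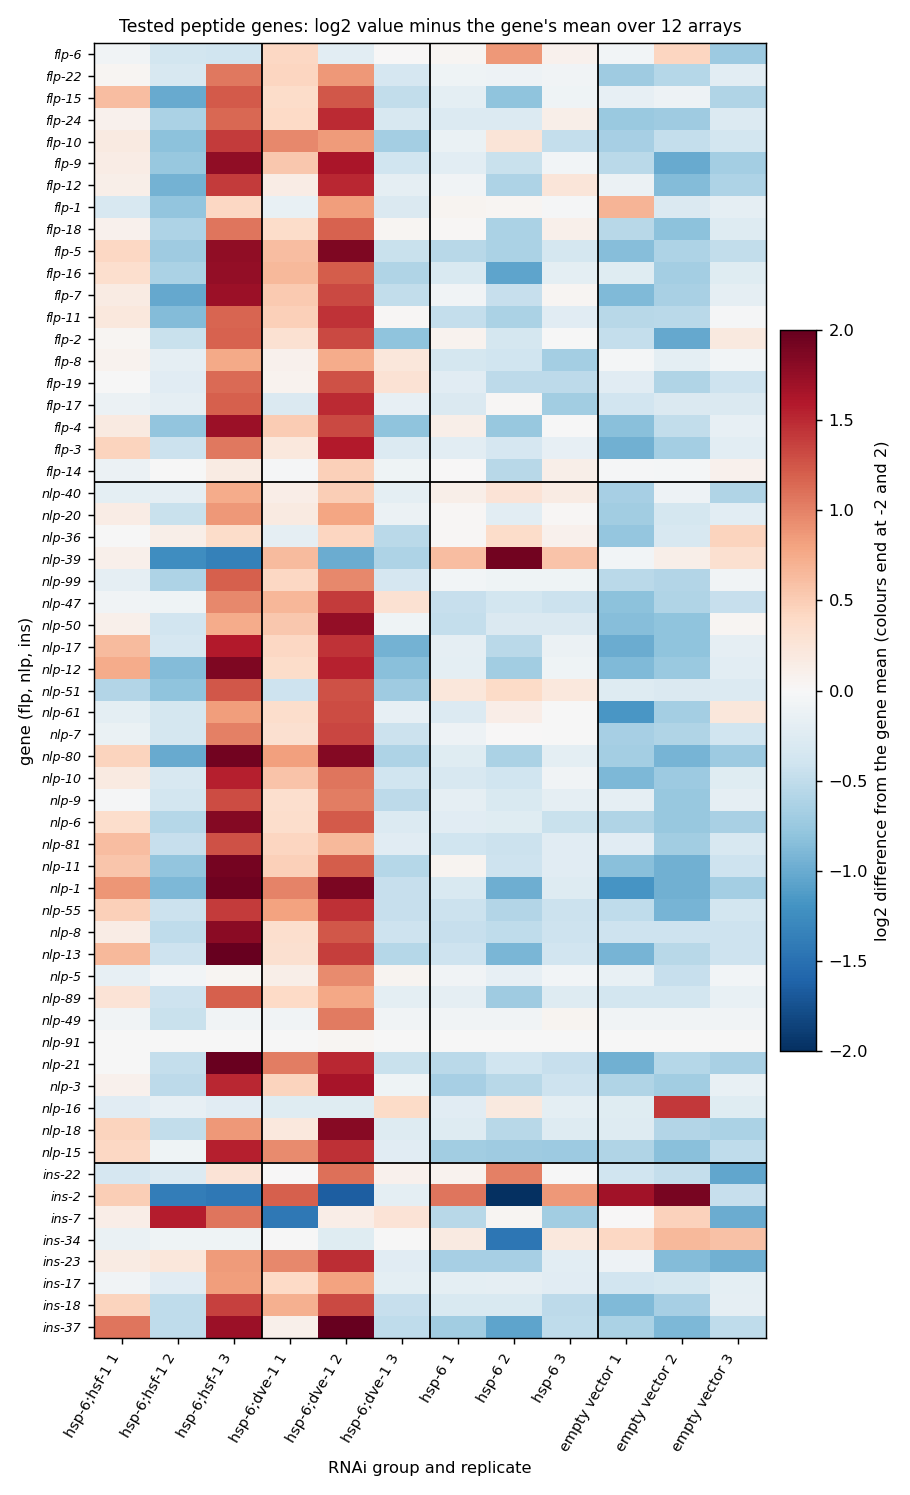
Log2 difference of each of the 59 tested peptide genes (rows) from its own mean over the 12 arrays (columns), with colours ending at -2 and 2. Red columns stand at hsf-1 dual RNAi replicate 3 and dve-1 dual RNAi replicate 2 across the flp, nlp and ins blocks, and rows such as flp-6, nlp-39, ins-2 and ins-34 lack them.

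Among the flp genes, flp-5, flp-9 and flp-3 had the widest ranges of group means, and no flp gene passed the test in any comparison. flp-5 read 7.06, 5.94 and 8.42 in the hsf-1 dual RNAi arrays and 7.25, 8.50 and 6.20 in the arrays labelled dve-1 dual RNAi. It read 6.09, 6.01 and 6.29 in the hsp-6 arrays and 5.79, 6.02 and 6.15 in the empty vector arrays. 2 arrays of each dual RNAi group thus stood above all hsp-6 and empty vector arrays, and the third did not. Its difference between the arrays labelled dve-1 dual RNAi and empty vector was 1.33 (SE 0.62, adjusted p = 0.19, limma), and 0.74 (SE 0.38, adjusted p = 0.30) without the 2 arrays that stood apart. flp-9 read 7.70, 6.78 and 9.32 in the hsf-1 dual RNAi arrays, 8.09, 9.19 and 7.14 in the arrays labelled dve-1 dual RNAi, 7.33, 7.11 and 7.50 in the hsp-6 arrays, and 7.01, 6.54 and 6.86 in the empty vector arrays.

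flp-24, a gene of the ALA neuron that acts in stress-induced sleep, averaged 8.11 ± 0.89 in the hsf-1 dual RNAi arrays, 8.42 ± 0.91 in the arrays labelled dve-1 dual RNAi, 7.75 ± 0.23 in the hsp-6 arrays and 7.33 ± 0.26 in the empty vector arrays (SD, n = 3 each). flp-13, the other flp gene of that neuron with this role, stayed between 2.56 and 3.13 on all arrays. flp-11, the sleep peptide gene of the RIS neuron, read 6.56, 7.53 and 6.10 in the arrays labelled dve-1 dual RNAi against 5.61, 5.46 and 5.86 in the hsp-6 arrays. These 2 groups did not overlap, and the difference of 1.09 had an SE of 0.48 (adjusted p = 0.20, limma). Without dve-1 dual RNAi replicate 2 and hsf-1 dual RNAi replicate 3 it was 0.69 (SE 0.34, adjusted p = 0.25). flp-18, which encodes ligands of the receptor NPR-1, did not overlap between the arrays labelled dve-1 dual RNAi and empty vector (7.53, 8.34 and 7.20 against 6.61, 6.35 and 6.91), with a difference of 1.07 (SE 0.43, adjusted p = 0.15), and of 0.75 (SE 0.31, adjusted p = 0.21) without those 2 arrays. flp-21, whose peptide also acts on NPR-1, read at most 3.75, in dve-1 dual RNAi replicate 2.

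flp-1, which shapes locomotion from the AVK neurons, was among the steadier flp genes. Its group means were 7.18 in the hsf-1 dual RNAi arrays, 7.54 in the arrays labelled dve-1 dual RNAi, 7.44 in the hsp-6 arrays and 7.49 in the empty vector arrays, and the highest of its 6 group differences in size was 0.36. flp-6, a peptide gene of sensory neurons, had the highest flp mean of 9.64 and did not follow the array order of the other flp genes. It read 9.56, 9.26 and 9.25 in the hsf-1 dual RNAi arrays against 9.67, 10.51 and 9.73 in the hsp-6 arrays. These groups did not overlap, with a difference of -0.61 (SE 0.31, adjusted p = 0.25, limma), and of -0.56 without the 2 arrays (SE 0.35, adjusted p = 0.37).

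1 peptide gene passed the test in 1 of the 6 comparisons made: nlp-47, which encodes a peptide related to gonadotropin-releasing and adipokinetic hormones. It read 8.69, 9.41 and 8.32 in the arrays labelled dve-1 dual RNAi, against 7.20, 7.41 and 7.56 in the empty vector arrays. All 3 arrays labelled dve-1 dual RNAi lay above all 3 empty vector arrays. The group means were 8.81 ± 0.56 and 7.39 ± 0.18 (SD, n = 3 each), a 2.67-fold rise (log2 difference 1.42, SE 0.33, adjusted p = 0.0498, limma). That p lies at the threshold: nlp-47 was called under 6 of 24 other settings, with adjusted p between 0.019 and 0.17, and in 3 of the 12 fits that left out 1 array. 1 of the 6 settings changes the choice of probe set and leaves nlp-47, which has 1, as it was. Without the 2 arrays that stood apart its difference was 1.12 (SE 0.17, adjusted p = 0.022).

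nlp-47 read 7.56, 7.65 and 7.59 in the hsp-6 arrays, which also lay below all arrays of both dual RNAi groups. Its values in the hsf-1 dual RNAi arrays were 7.95, 7.93 and 8.98. They lay above all empty vector arrays too, with a difference of 0.90 that was not called (adjusted p = 0.12, limma). No probe set was called in that comparison. The difference from hsp-6 RNAi was 1.21 in the arrays labelled dve-1 dual RNAi (SE 0.33, adjusted p = 0.054) and 0.69 in the hsf-1 dual RNAi arrays (SE 0.33, adjusted p = 0.22). Neither passed the test on all 12 arrays. Without the 2 arrays that stood apart, the first was 0.91 (SE 0.17, adjusted p = 0.023) and the second 0.34 (adjusted p = 0.26).

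nlp-39 went the other way. It read 8.41, 7.07 and 6.95 in the hsf-1 dual RNAi arrays and 8.94, 7.31 and 7.69 in the arrays labelled dve-1 dual RNAi, against 8.93, 10.24 and 8.88 in the hsp-6 arrays. The empty vector arrays read 8.25, 8.42 and 8.62. The hsf-1 dual RNAi and hsp-6 arrays did not overlap, and the 2 arrays that stood apart were among the low ones here. The difference between hsf-1 dual RNAi and hsp-6 was -1.88 (SE 0.51, adjusted p = 0.055, limma), and it was called under 2 of 24 other settings, with adjusted p between 0.042 and 0.18. It was -1.61 without the 2 arrays (SE 0.54, adjusted p = 0.11).

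nlp-40, which the intestine releases as the timing signal of the defecation motor program, had the highest mean of the peptide genes, 11.40. It read 11.52, 11.67 and 11.56 in the hsp-6 arrays, against 10.73, 11.30 and 10.80 in the empty vector arrays. All hsp-6 arrays lay above all empty vector arrays, and the difference of 0.64 did not pass the test on all 12 arrays (SE 0.27, adjusted p = 0.19). Without the 2 arrays that stood apart, which belong to neither group but enter the shared estimate of the spread, the SE was 0.16 and the adjusted p 0.034. nlp-51 behaved alike in this comparison, with 7.74, 7.91 and 7.73 in the hsp-6 arrays and 7.26, 7.23 and 7.24 in the empty vector arrays. Its difference of 0.55 had an SE of 0.56 on all 12 arrays (adjusted p = 0.62) and of 0.15 without the 2 arrays (adjusted p = 0.043).

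nlp-1, a peptide gene of the AWC olfactory neurons, had the widest range of group means among the nlp genes after nlp-39. It read 6.31, 4.52 and 7.36 in the hsf-1 dual RNAi arrays and 6.40, 7.31 and 4.95 in the arrays labelled dve-1 dual RNAi. It read 5.11, 4.45 and 5.16 in the hsp-6 arrays and 4.24, 4.45 and 4.74 in the empty vector arrays. The third array labelled dve-1 dual RNAi and the second hsf-1 dual RNAi array lay within the range of the hsp-6 arrays. Its difference of 1.74 between the arrays labelled dve-1 dual RNAi and empty vector was not called (SE 0.69, adjusted p = 0.15), and it was 1.198 without the 2 arrays that stood apart (SE 0.57, adjusted p = 0.26). nlp-13 had the next widest range, with 5.93, 4.87 and 7.50 in the hsf-1 dual RNAi arrays, against 4.87, 4.36 and 4.89 in the hsp-6 arrays (difference 1.39, SE 0.61, adjusted p = 0.19). This difference was 0.69 without the 2 arrays (SE 0.39, adjusted p = 0.31). The 4.87 of nlp-13 was the same exact value in hsf-1 dual RNAi replicate 2, hsp-6 replicate 1 and empty vector replicate 3. Its low values may thus not be those of a measured transcript.

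nlp-12, which encodes cholecystokinin-like peptides of the DVA neuron, averaged 8.18 ± 1.37 in the hsf-1 dual RNAi arrays, 7.96 ± 1.19 in the arrays labelled dve-1 dual RNAi, 7.28 ± 0.33 in the hsp-6 arrays and 6.99 ± 0.35 in the empty vector arrays (SD, n = 3 each). nlp-8, which acts with flp-24 and flp-13 in the ALA neuron, read 5.54, 4.87 and 7.20 in the hsf-1 dual RNAi arrays and 5.72, 6.63 and 4.98 in the arrays labelled dve-1 dual RNAi, while the hsp-6 and empty vector arrays all lay between 4.87 and 4.98. Exact values recurred there, such as 4.874 in hsf-1 dual RNAi replicate 2 and hsp-6 replicate 2. As for nlp-91, these low values of nlp-8 may not be those of a measured transcript. nlp-3, a peptide gene of the egg-laying HSN neurons, read 4.45, 5.65 and 3.93 in the arrays labelled dve-1 dual RNAi against 3.35, 3.46 and 3.59 in the hsp-6 arrays. nlp-3 passed the filter through the dual RNAi arrays alone, so its difference of 1.21 is given as a value only, and it was 0.72 without the 2 arrays. nlp-20 and nlp-36, with means of 10.16 and 10.10, had group means within 0.70 and 0.38 of each other. nlp-16 had its highest value, 5.32, in empty vector replicate 2, and lay between 3.65 and 4.28 elsewhere.

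**Figure D3:**
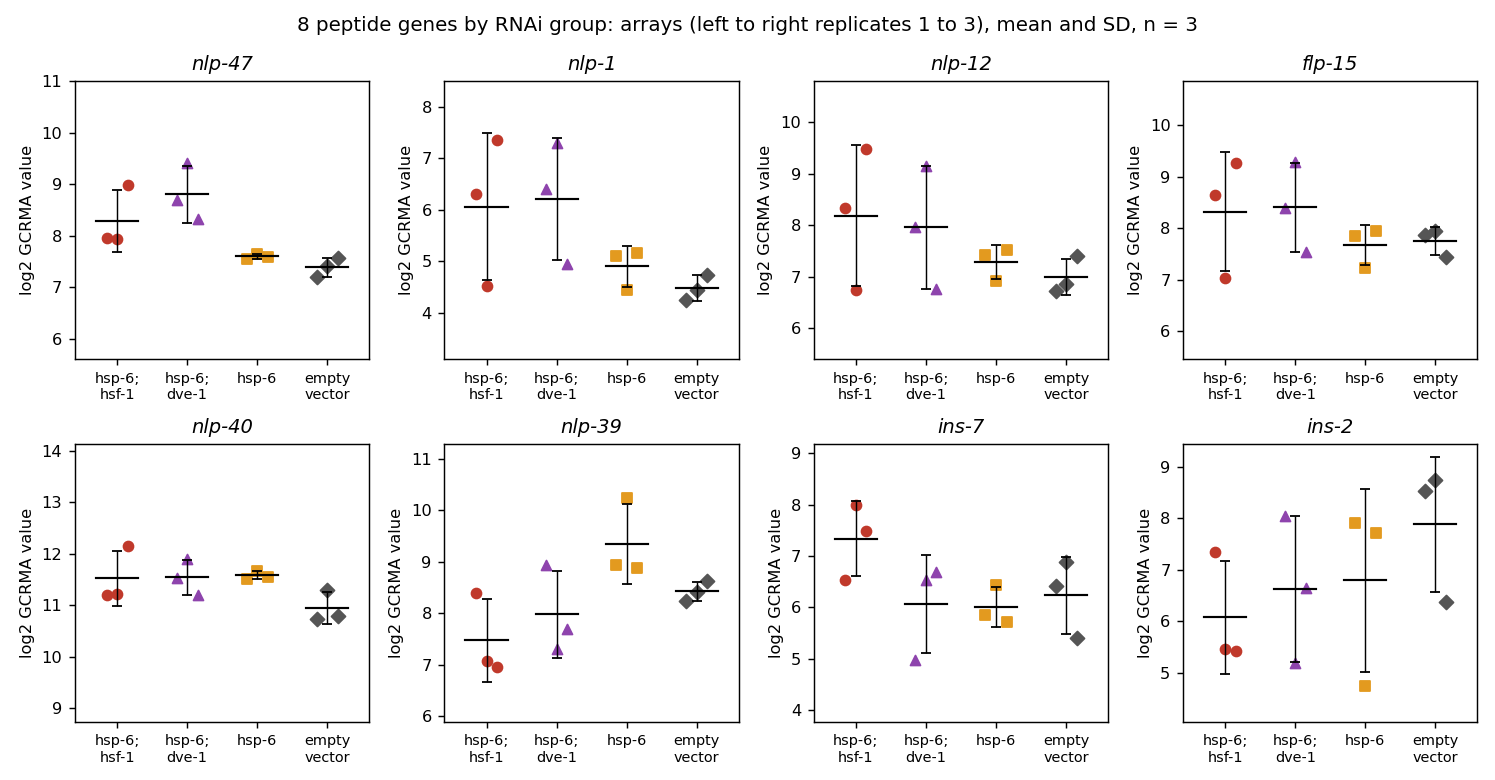
Log2 GCRMA values (vertical axis) of 8 peptide genes by RNAi group, with 1 point per array, a bar for the group mean and whiskers for 1 SD (n = 3). nlp-1, nlp-12 and flp-15 spread widely inside both dual RNAi groups. The arrays of both dual RNAi groups lie above the hsp-6 and empty vector arrays for nlp-47, and nlp-39 and ins-2 have other patterns.

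The insulin-like genes were mostly near the lower end of the scale, with a median of their means of 2.43, next to 6.09 for flp and 4.57 for nlp genes. These are probe set values, which do not rank transcript amounts between genes. No ins gene passed the test in any comparison. ins-22 had the highest mean of this family, 6.85. It read 6.92, 7.85 and 6.83 in the hsp-6 arrays, against 6.45, 6.37 and 5.81 in the empty vector arrays. These did not overlap, with a difference of 0.99 (SE 0.37, adjusted p = 0.16, limma). The 2 arrays that stood apart belong to neither group, and without them the adjusted p was 0.053. ins-34 read 6.27 to 6.32 in the hsf-1 dual RNAi arrays, 6.16 to 6.39 in the arrays labelled dve-1 dual RNAi, and 6.59, 4.96 and 6.62 in the hsp-6 arrays, against 6.83, 7.06 and 6.99 in the empty vector arrays. The empty vector arrays thus stood above those of each RNAi group, and the differences of -0.65, -0.64 and -0.90 had adjusted p of 0.24, 0.28 and 0.20.

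ins-7, which encodes a DAF-2 agonist made in intestine and neurons, was the peptide gene with the largest difference between the dual RNAi groups. It read 6.54, 7.98 and 7.48 in the hsf-1 dual RNAi arrays and 4.98, 6.54 and 6.69 in the arrays labelled dve-1 dual RNAi. It read 5.86, 6.45 and 5.71 in the hsp-6 arrays and 6.41, 6.88 and 5.41 in the empty vector arrays. The hsf-1 dual RNAi arrays lay above the hsp-6 arrays by a mean of 1.33 (SE 0.53, adjusted p = 0.16) without overlap, and above the arrays labelled dve-1 dual RNAi by 1.27 (SE 0.53, adjusted p = 1) with overlap. Neither difference passed the test. They were 1.26 (adjusted p = 0.25) and 1.43 (adjusted p = 1) without the 2 arrays.

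ins-2 varied widely inside each group and not along the order of the other genes. It read 7.34, 5.47 and 5.42 in the hsf-1 dual RNAi arrays, 8.04, 5.19 and 6.64 in the arrays labelled dve-1 dual RNAi, 7.91, 4.75 and 7.72 in the hsp-6 arrays, and 8.53, 8.75 and 6.38 in the empty vector arrays. ins-23 read 6.56, 7.08 and 5.39 in the arrays labelled dve-1 dual RNAi against 5.50, 4.74 and 4.65 in the empty vector arrays (difference 1.38, SE 0.42, adjusted p = 0.087). It was 1.01 without the 2 arrays (SE 0.38, adjusted p = 0.18).

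ins-17 and ins-18, which encode DAF-2 antagonists, followed the pattern of the neuropeptide genes. ins-18 read 5.91, 4.96 and 6.83 in the hsf-1 dual RNAi arrays and 6.18, 6.79 and 5.0 in the arrays labelled dve-1 dual RNAi, against 4.58, 4.80 and 5.28 in the empty vector arrays. Its differences from empty vector, 1.01 and 1.10, had adjusted p of 0.19 in both cases, and were 0.55 and 0.70 without the 2 arrays (adjusted p = 0.45 and 0.35). ins-37, at 4.27, 2.69 and 4.91 in the hsf-1 dual RNAi arrays and 3.31, 5.67 and 2.69 in the arrays labelled dve-1 dual RNAi, stayed at or below 2.69 in the hsp-6 and empty vector arrays. ins-35 read 5.09 in hsf-1 dual RNAi replicate 3 and 5.53 in dve-1 dual RNAi replicate 2 and at most 3.57 elsewhere. ins-4, another DAF-2 agonist gene, read 4.30 and 4.60 on these same 2 arrays and at most 2.22 elsewhere. ins-11 reached 3.46 in the first of them. ins-1, ins-6 and ins-33 reached at most 2.88, 2.63 and 2.32.

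For hsp-6 RNAi against empty vector, none of the 59 tested peptide genes passed limma's adjusted p below 0.05, where 2.74% of all tested probe sets did. 3 had an unadjusted p below 0.05 (ins-22 and nlp-40 higher, ins-34 lower), a share of 5.1% next to 21.6% of all. 12 genes did not overlap between these groups, which is 20.3%, next to 39.7% of all tested probe sets. 43 of 59 differences were positive, with a median of 0.21, where the median of all tested probe sets was -0.02. Without the 2 arrays that stood apart, which belong to neither group, nlp-40 and nlp-51 were called higher, 3.4% of the peptide genes where 13.9% of all tested probe sets were called.

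For hsf-1 dual RNAi against hsp-6, none of the 59 genes were called, where 5.67% of all tested probe sets were. 6 had an unadjusted p below 0.05, 10.2% next to 24.7% of all, and 8 did not overlap, 13.6% next to 34.4%. 48 differences were positive and their median was 0.59, where that of all tested probe sets was -0.10. Without the 2 arrays that stood apart the median was 0.08, and nlp-51 was called lower (-0.97, SE 0.17, adjusted p = 0.022), 1.7% of the genes where 5.99% of all tested probe sets were called. nlp-51 read 6.93, 6.71 and 8.76 in the hsf-1 dual RNAi arrays, and the left-out 8.76 lay above all hsp-6 arrays (7.73 to 7.91). On all 12 arrays its group means were 7.47 and 7.79, and it was not called.

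For the arrays labelled dve-1 dual RNAi against hsp-6, none were called, where 5.74% of all tested probe sets were. 9 had an unadjusted p below 0.05, 15.3% next to 24.2%, and 8 did not overlap, 13.6% next to 33.8%. 53 differences were positive, with a median of 0.64 where that of all was -0.06. Without the 2 arrays the median was 0.25, with nlp-47 called higher and nlp-51 lower (-0.84, SE 0.17, adjusted p = 0.026), 3.4% of the genes where 6.39% of all were called. nlp-51 read 7.11, 8.79 and 6.80 in the arrays labelled dve-1 dual RNAi, and the left-out 8.79 lay above all hsp-6 arrays. On all 12 arrays its group means were 7.57 and 7.79, and it was not called. Both comparisons use the same hsp-6 arrays.

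Against empty vector, none of the 59 genes were called in the hsf-1 dual RNAi arrays, nor was any other probe set (0% of 12057), and 9 genes had an unadjusted p below 0.05, 15.3% next to 29.8% of all. 9 did not overlap, which is 15.3% next to 36.9%. The median difference was 0.73, where that of all was -0.13, and it was 0.27 without the 2 arrays that stood apart. In the arrays labelled dve-1 dual RNAi, 1 gene, nlp-47, was called, or 1.7% where 2.27% of all tested probe sets were. 18 genes had an unadjusted p below 0.05, 30.5% next to 26.8% of all, and all 18 were higher, where 13.4% of all tested probe sets were higher at this p. 19 genes did not overlap, which is 32.2% next to 32.4%. 18 of these were higher, where 14.3% of all were, and ins-34 was lower. The median difference was 0.96, where that of all was -0.10, and 0.48 without the 2 arrays. The differences of the flp genes had a median of 0.86, those of the nlp genes 0.96 and those of the 8 tested ins genes 0.84. Without the 5 genes that passed the filter through the dual RNAi arrays alone, 16 of 54 genes (29.6%) had an unadjusted p below 0.05, 16 did not overlap and the median was 0.83. In the other comparisons of a dual RNAi group with hsp-6 or empty vector, 1 or 2 of these 5 were in each such count, and the medians without them were 0.51 for hsf-1 dual RNAi against hsp-6, 0.60 for the arrays labelled dve-1 dual RNAi against hsp-6, and 0.72 for hsf-1 dual RNAi against empty vector.

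Between hsf-1 dual RNAi and the arrays labelled dve-1 dual RNAi, none of the 59 genes were called, where 0.232% of all tested probe sets were. ins-7 alone had an unadjusted p below 0.05 (1.7% next to 2.30% of all), and nlp-5 alone did not overlap (1.7% next to 3.67%), with 4.99, 5.10 and 5.20 in the hsf-1 dual RNAi arrays against 5.27, 6.10 and 5.21 in the arrays labelled dve-1 dual RNAi. Only 5.20 against 5.21 parted these groups for nlp-5. Its 5.10 recurred exactly in hsp-6 replicate 3 and empty vector replicate 3, so its low values may not be those of a measured transcript. The median difference was -0.13. Its sign turned with single arrays: it was 0.24 without hsf-1 dual RNAi replicate 2 and 0.23 without dve-1 dual RNAi replicate 2, and -0.56 without hsf-1 dual RNAi replicate 3 and -0.54 without dve-1 dual RNAi replicate 3. Without both arrays that stood apart it was -0.18.

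**Figure D4:**
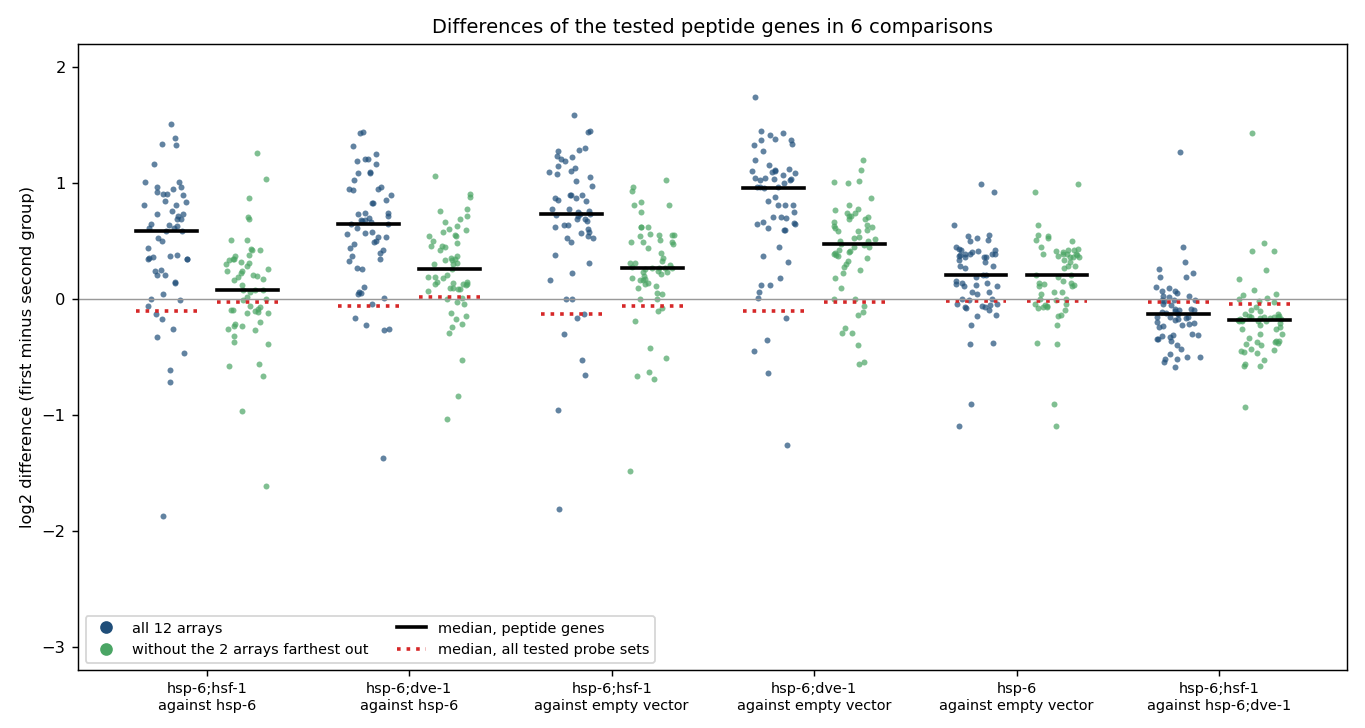
Log2 differences (vertical axis) of the 59 tested peptide genes in the 6 comparisons, from all 12 arrays (blue) and without the 2 arrays farthest out (green), with 1 point per gene. Black bars mark the median of the peptide genes and dotted red bars that of all tested probe sets. The medians of both dual RNAi groups against hsp-6 are 0.59 and 0.64 with all arrays, and 0.08 and 0.25 without the 2.

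Of the 10 peptide genes with more than 1 probe set, flp-1, flp-2, flp-15, nlp-9 and nlp-99 had a further tested one. For nlp-9 the other probe set read 6.31, 5.78 and 7.39 in the hsf-1 dual RNAi arrays and 6.81, 7.45 and 5.66 in the arrays labelled dve-1 dual RNAi, against 5.70, 5.79 and 6.03 in the hsp-6 arrays. It was highest on the same 2 arrays as the chosen one. The others disagreed in places. The third probe set of flp-1 was 0.83 lower in the hsf-1 dual RNAi than in the hsp-6 arrays, where the chosen one was 0.26 lower. The second of nlp-99 differed by -0.14 between the arrays labelled dve-1 dual RNAi and hsp-6, where the chosen one differed by 0.42. The second of nlp-6 stayed at the table's minimum of 2.16 on all arrays.

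The genes that make and release these peptides were taken from a list of 19, of which 18 were tested and unc-31, needed for dense core vesicle release, never exceeded log2 4. None of the 18 passed the test in any of the 6 comparisons, where 0% to 5.74% of all tested probe sets did. At an unadjusted p below 0.05 there were between 0 and 4 of the 18 per comparison. The share of all tested probe sets at this p was 2.30% between the dual RNAi groups. It was 21.6% to 29.8% in the other comparisons. In 8 of the 18 (44.4%), egl-3, egl-21, sbt-1, pghm-1, pgal-1, aex-5, ida-1 and cccp-1, both arrays that stood apart lay above the other 10, which held for 15.7% of all tested probe sets. egl-3, the proprotein convertase that cuts the precursors, read 7.81, 6.84 and 9.01 in the hsf-1 dual RNAi arrays and 7.88, 8.79 and 6.60 in the arrays labelled dve-1 dual RNAi. It read 7.04, 7.09 and 6.97 in the hsp-6 arrays and 6.90, 6.47 and 7.06 in the empty vector arrays. sbt-1, the 7B2 chaperone of this convertase, read 9.43, 8.56 and 10.71 in the hsf-1 dual RNAi arrays and 9.80, 10.55 and 8.71 in the arrays labelled dve-1 dual RNAi, with 8.68 to 9.10 in the hsp-6 arrays and 8.28 to 8.62 in the empty vector arrays.

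egl-21, the carboxypeptidase that trims the cut peptides, and pghm-1 and pgal-1, which amidate them, were likewise highest in hsf-1 dual RNAi replicate 3 and dve-1 dual RNAi replicate 2. egl-21 read 10.06 and 9.28 there and 7.15 to 8.66 elsewhere, pghm-1 9.07 and 8.79 with 6.37 to 7.91 elsewhere, and pgal-1 10.01 and 9.45 with 7.18 to 8.54 elsewhere. The other 10 genes did not have this order, among them kpc-1, cpd-1, cpd-2, hid-1, rund-1 and pkc-1. bli-4, a convertase of the cuticle, read 9.66 and 9.49 on those 2 arrays and 9.75 to 10.40 elsewhere. pamn-1, the bifunctional amidating enzyme, lay between 6.21 and 6.98 on all arrays. It read 6.50 or 6.51 on most of them, a repeated value like that of nlp-91, so its steadiness may not be that of a measured transcript. The genes given with values were picked from the list after their values were seen.

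Of 100 neuropeptide receptor genes on the array, 85 never exceeded log2 4 and 11 were tested. 1 of them, npr-42, passed the filter through its hsp-6 arrays alone. Under hsp-6 RNAi 3 of the other 10 rose against empty vector and 0 fell, where 2.74% of all tested probe sets were called. pdfr-1, the receptor of the pigment-dispersing factor peptides, read 8.27, 8.85 and 8.0 in the hsp-6 arrays, against 5.32, 4.80 and 3.95 in the empty vector arrays. All hsp-6 arrays were above all others of the study, and the rise was 3.68 (SE 0.39, adjusted p = 0.0013, limma). trhr-1, a receptor related to that of thyrotropin-releasing hormone, read 6.08, 6.76 and 6.52 in the hsp-6 arrays against 3.64, 4.04 and 4.16 in the empty vector arrays (rise 2.51, SE 0.37, adjusted p = 0.006). gnrr-2, a receptor related to that of gonadotropin-releasing hormone, also rose, by 2.29 (SE 0.34, adjusted p = 0.0061). It read 5.84, 4.97 and 6.03 in the hsp-6 arrays against 2.91, 3.62 and 3.42 in the empty vector arrays. It exceeded log2 4 on 6 arrays, those of hsp-6 RNAi and those labelled dve-1 dual RNAi. It thus passed the filter through groups where it was high, and the size of its rise rests on values below log2 4. The adjusted p given for gnrr-2 here and below carry this limit. npr-42, a receptor-like gene, read 4.85, 4.82 and 4.49 in the hsp-6 arrays and at most 3.09 on all others. Since this pattern let it pass the filter, its difference of 1.85 from empty vector is a description with no test, and it was 0.72 with values below log2 4 set to log2 4.

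In the dual RNAi groups pdfr-1 was low again. It read 4.54, 5.56 and 5.39 in the hsf-1 dual RNAi arrays and 4.92, 4.78 and 5.22 in the arrays labelled dve-1 dual RNAi, and it fell by 3.21 and 3.40 relative to hsp-6 RNAi (adjusted p = 0.0049 and 0.0018). npr-42 lay between 2.79 and 3.09 in both groups. gnrr-2 read 3.26, 3.42 and 3.28 in the hsf-1 dual RNAi arrays, against 5.84, 4.97 and 6.03 in the hsp-6 arrays, a fall by 2.29 (SE 0.34, adjusted p = 0.0091). With hsp-6 replicates 1 and 3 as 1 array the difference was -2.13 and not called (adjusted p = 0.06). With 4.59, 4.29 and 5.09 in the arrays labelled dve-1 dual RNAi, its difference of -0.96 from hsp-6 RNAi was not called (adjusted p = 0.12). trhr-1 read 6.73, 6.20 and 6.82 in the arrays labelled dve-1 dual RNAi and stayed 2.63 above empty vector (SE 0.37, adjusted p = 0.0081). In the hsf-1 dual RNAi arrays it read 4.87, 6.04 and 6.28, a difference of 1.79 from empty vector that was not called on all 12 arrays (adjusted p = 0.085).

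The rises between hsp-6 RNAi and empty vector were also called without the 2 arrays that stood apart, which belong to neither group, with adjusted p of 0.0023 for pdfr-1, 0.0041 for trhr-1 and 0.0059 for gnrr-2. The calls of pdfr-1 and trhr-1 named above were also made under each of the 24 other settings run. gnrr-2 was called against empty vector in 23 of 23 and between hsf-1 dual RNAi and hsp-6 in 19 of 23. Since gnrr-2 passed the filter through groups where it was high, these counts add no support for its differences. egl-6, the receptor through which flp-10 and flp-17 peptides hold back egg laying, was not called in any comparison. It read 6.15, 6.89 and 5.98 in the hsf-1 dual RNAi arrays, 6.33, 5.76 and 6.97 in the arrays labelled dve-1 dual RNAi, 7.12, 6.87 and 6.93 in the hsp-6 arrays, and 6.26, 6.23 and 6.54 in the empty vector arrays.

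Of 11 genes of insulin receptor signalling 10 were tested, and daf-2, the receptor, never exceeded log2 4. akt-2, a kinase below the receptor, was the only one of the 10 called. It was called in 2 comparisons, where 5.67% and 5.74% of all tested probe sets were called. It read 6.68, 6.29 and 6.64 in the hsf-1 dual RNAi arrays and 6.25, 6.26 and 5.98 in the arrays labelled dve-1 dual RNAi, against 7.74, 7.50 and 7.56 in the hsp-6 arrays. The empty vector arrays read 6.72, 6.96 and 6.58. The hsp-6 arrays lay above all others. akt-2 fell by 1.06 in the hsf-1 dual RNAi arrays (SE 0.21, adjusted p = 0.02) and by 1.44 in the arrays labelled dve-1 dual RNAi (SE 0.21, adjusted p = 0.0054). The first was called under 18 of 24 other settings and the second under all 24. With hsp-6 replicates 1 and 3 as 1 array, the first difference was -1.04 and not called (adjusted p = 0.084). The rise of 0.85 between hsp-6 RNAi and empty vector missed the threshold (adjusted p = 0.057). Without the 2 arrays that stood apart, which belong to neither group, it was called (SE 0.18, adjusted p = 0.021). So was sgk-1 of the same list (0.76, SE 0.19, adjusted p = 0.035), under a setting that called 13.9% of all tested probe sets. daf-16, the transcription factor held out of the nucleus by this pathway, was not called and had group means within 0.55 of each other.

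Other gene lists moved between the same arrays. In a list of 34 neuronal, synaptic and transmitter genes, 16 never exceeded log2 4 and 15 were tested. None was called in any comparison, where 0% to 5.74% of all tested probe sets were. The median deviation of these 15 from their own means was 0.69 in hsf-1 dual RNAi replicate 3 and 0.27 in dve-1 dual RNAi replicate 2, where the peptide genes had 1.18 and 1.25. 8 of the 15 had their highest value in the first of these arrays and 1 in the second. The summed level of the 34 genes, as log2 of the sum of linear values, ran from 12.68 to 12.85 in the hsf-1 dual RNAi arrays, 12.68 to 12.75 in the arrays labelled dve-1 dual RNAi, 12.89 to 12.95 in the hsp-6 arrays and 12.54 to 12.76 in the empty vector arrays. Genes with high values dominate this sum. snb-1 (mean 11.87) lay between 11.57 and 12.14 on all arrays, and tdc-1 (mean 10.10) was lowest on the 2 arrays, at 9.07 and 9.24. The sum therefore says little about the genes with lower values.

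Muscle, cuticle collagen, intestine and sperm genes were also high on these 2 arrays, with medians of 1.48, 1.47, 1.09 and 3.11 in hsf-1 dual RNAi replicate 3 and 1.41, 1.28, 0.94 and 3.41 in dve-1 dual RNAi replicate 2. Germline and oocyte genes were low there, at -0.79 and -0.70. The rise of sperm genes was not particular to these 2 arrays. Their median was 3.24 and 1.66 in hsf-1 dual RNAi replicates 1 and 2, and 2.74 and 0.36 in dve-1 dual RNAi replicates 1 and 3. In the first replicates of the 2 dual RNAi groups muscle genes had 1.08 and 0.91, and collagen genes 1.17 and 0.60. The summed level of 12 muscle genes, of which myo-2 and unc-22 never exceeded log2 4, ran from 13.004 to 14.19 in the hsf-1 dual RNAi arrays and 12.58 to 14.06 in the arrays labelled dve-1 dual RNAi. It ran from 11.95 to 12.04 in the hsp-6 arrays and 12.03 to 12.44 in the empty vector arrays. That of 142 collagen genes, 38 of them never above log2 4, ran from 17.94 to 18.58, 17.86 to 18.49, 16.63 to 16.98 and 16.35 to 17.74 in the same order of groups. That of 32 sperm genes, 3 of them never above log2 4, ran from 15.99 to 17.54, 14.73 to 17.74, 9.28 to 12.96 and 10.02 to 14.53. The part of these other tissues in the levels of the peptide genes was not tested.

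**Figure D5:**
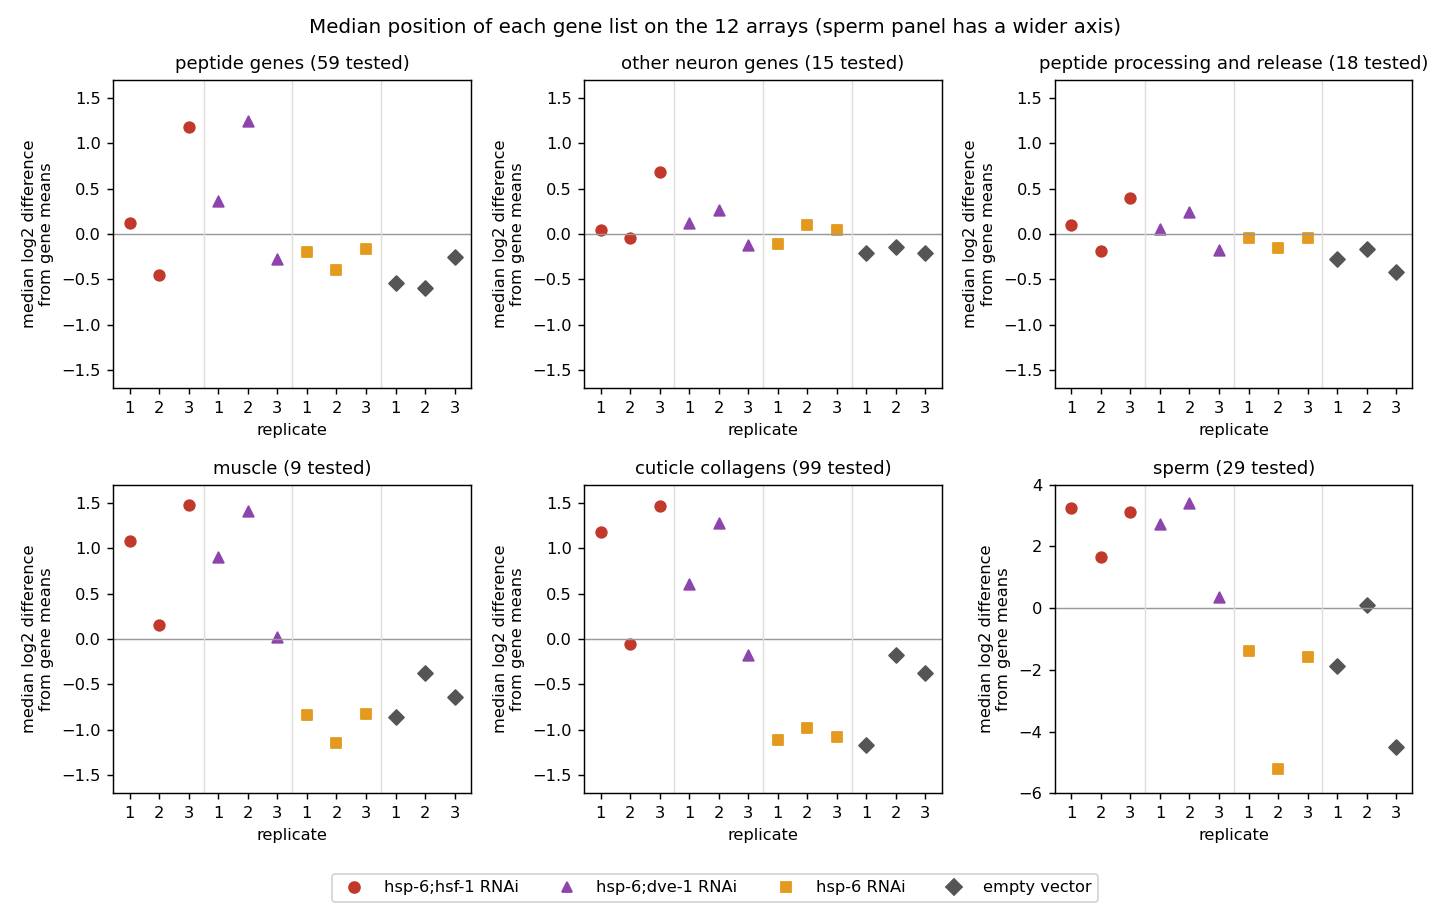
Median log2 difference of each gene list from its gene means (vertical axis) on the 12 arrays (horizontal axis, replicates within groups), 1 panel per list, with a wider axis for sperm genes. Peptide genes are highest on hsf-1 dual RNAi replicate 3 and dve-1 dual RNAi replicate 2, at 1.18 and 1.25. Muscle and collagen genes are also high there, and the other neuron genes reach 0.69 and 0.27.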

How the data were processed

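Whole-worm RNA of 12 samples in 4 RNAi groups was measured on Affymetrix 3' expression arrays. The deposited log2 values were made by the authors with GCRMA (version not given in the sources used here), which corrects background, normalizes the arrays and summarises probe sets, per the labels and the submitters' processing notes, which also name GCOS 1.4. Arrays carry no count depth, so their number limits the precision. Genes were named from the array annotation, which can be old. All 97 peptide genes were found in a RefSeq table under the same symbol.

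From 22625 probe sets, 77 controls were left out and those above log2 4 on at least 3 arrays were tested (12057). The fit used limma (version 3.58.1, under R 4.3.3) with the means of all 4 groups and an intensity trend (8 residual and 3.16 prior degrees of freedom). Tests were two-sided. Calls needed an adjusted p (Benjamini-Hochberg, over all probe sets tested) below 0.05. The fit was also run on simulated data with independent arrays and the same spread in each group. The arrays here differ from that, so the simulation does not show how the fit behaves on them. Differences are the group named first minus the second, on the log2 scale. Values at the table's minimum make differences lower bounds.

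The peptide genes, the other gene lists, the filter and the tests were chosen with earlier results of these data known. Genes named are, per family, the 4 with the highest mean and the 3 with the widest range of group means, those nearest log2 4, called genes, up to 3 called genes of each other list, and some ins, flp and nlp genes fixed by name. Lists of other tissues are given as summed levels and medians, not gene by gene. Any further gene was picked with its values in view. The moulting and embryo lists showed median deviations of 1.21 and -0.54 in hsf-1 dual RNAi replicate 3, and 0.87 and -0.64 in dve-1 dual RNAi replicate 2.

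Replicate numbers were not treated as pairs, because no label says that they mark a shared culture or day. The settings varied were the filter (none, or log2 6), a further quantile normalization, centring on array medians, no trend, robust fitting, a floor at log2 4, fitting the compared groups only, the replicate block, the lowest-mean probe set of each gene, and leaving out each array. Further settings, each affecting 2 arrays, were chosen after seeing the data: hsp-6 replicates 1 and 3, the most alike arrays (correlation 0.997), averaged into 1, and the pair of arrays with the highest scores on principal component 1 left out. matplotlib 3.10.9 under Python 3.11.15 drew the figures.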

Additional observations from a re-analysis of the deposited data

How the results depend on the processing

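The number of peptide genes called was small in each comparison and changed with the settings. Between the arrays labelled dve-1 dual RNAi and empty vector, where nlp-47 was called, 0 genes were called with no filter, further quantile normalization, centring, no trend, robust fitting, the floor at log2 4, the compared groups alone, and hsp-6 replicates 1 and 3 as 1 array. Under these settings 0.299% to 3.09% of all tested probe sets were called. Leaving out each array in turn gave 0 to 5 genes. There were 5 (ins-23, nlp-15, nlp-47, nlp-50 and nlp-55) without dve-1 dual RNAi replicate 3, 8.5% of the genes where 8.61% of all tested probe sets were called. Between the arrays labelled dve-1 dual RNAi and hsp-6, 1 gene was called at a minimum of log2 6 (2.5% where 6.29% of all were called). Without the 2 arrays farthest out 2 were called (3.4% next to 6.39%). With each array left out there were 0 to 3. The 3 were called without dve-1 dual RNAi replicate 3 (5.1% where 10.3% of all were called), and 1 without hsf-1 dual RNAi replicate 3 (1.7% next to 8.68%). Between hsf-1 dual RNAi and hsp-6, 1 was called at a minimum of log2 6 (2.5% where 6.37% of all were called). Without the 2 arrays 1 was called (1.7% next to 5.99%). With each array left out there were 0 to 3. The 3 (nlp-13, nlp-15 and nlp-81) were called without hsf-1 dual RNAi replicate 2 (5.1% where 11.9% of all were called), and 1 without dve-1 dual RNAi replicate 2 (1.7% next to 9.16%). Between hsf-1 dual RNAi and empty vector the range was 0 to 4, with 4 (nlp-1, nlp-11, nlp-6 and nlp-81) without hsf-1 dual RNAi replicate 2, 6.8% of the genes where 8.68% of all were called. nlp-15 had passed the filter through the dual RNAi arrays alone. Between hsp-6 and empty vector, 2 were called without the 2 arrays farthest out, 3.4% where 13.9% of all were called. The cause was not tested.

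With the replicate number as a block, 0 peptide genes were called in each of the 6 comparisons, where 0% to 3.18% of all tested probe sets were. Of 18 pairs of arrays with the same number, 8 had deviations correlated above 0.1, with a range from -0.76 to 0.61. 6 of 12 arrays correlated best with an array of their own number. All pairs of replicate 1 arrays correlated positively, from 0.098 to 0.61, the last between the 2 dual RNAi groups. Pairs of replicate 2 ran from -0.74 to 0.25 and those of replicate 3 from -0.76 to 0.11. The numbers were not taken to pair the samples, as no label gives a shared culture or day. Whether the replicate 1 arrays share one cannot be told. The highest correlations crossed the numbers. They were 0.85 between hsf-1 dual RNAi replicate 2 and dve-1 dual RNAi replicate 3, and 0.84 between hsf-1 dual RNAi replicate 3 and dve-1 dual RNAi replicate 2. The block by replicate number does not join the arrays of these 2 crossing pairs, so it cannot account for what they share. No fit modelled what these pairs share. For the named genes, 28 of 4848 results under other settings lost a call, 20 gained one and 0 called differences changed sign.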
